A study of Homo sapiens with 12 samples.

Results

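The comparison described here is between Cal27 cells that had been conditioned with lysophosphatidic acid (LPA) on soft gels and Cal27 cells conditioned on soft gels without it. Cal27 is an established line of human squamous carcinoma cells from the tongue, labelled wild type, and all libraries came from this 1 line. In the LPA-to-soft condition, cells spent 5 days on collagen-coated polyacrylamide of 0.48 kPa with LPA and then 1 day on gel of the same stiffness, with LPA named for the conditioning phase only. In the soft-to-soft condition, cells spent 5 days and then 1 day on the same 0.48 kPa gel, and the labels name no treatment. Medium with serum, itself a natural source of LPA, was shared by both. The sources used here give neither the dose of LPA nor any vehicle for soft-to-soft cells. These 6 of the 12 RNA-seq libraries, 3 per condition, were set against each other by replicate number, and all 15437 genes of 25382 that passed a filter on low counts were compared. In the other 2 conditions, which serve only to test differences, cells were conditioned on stiff gel of 20 kPa and moved to soft gel (stiff-to-soft), or conditioned with LPA and moved to soft gel with an inhibitor of focal adhesion kinase (LPA-to-FAKi). The series design counts LPA-to-soft among the conditions that had learned and soft-to-soft among those that had not, so the comparison asks which expression differences were present a day after LPA conditioning ended.

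LPA is a small lipid that signals through G protein-coupled receptors of the LPAR family. The enzyme autotaxin, encoded by ENPP2, makes it outside the cell, and lipid phosphate phosphatases break it down. Through G proteins its receptors raise actomyosin contraction, and cells then assemble focal adhesions, where integrins, talin, vinculin and focal adhesion kinase (FAK, encoded by PTK2) join the matrix to actin. Actin tension is known to act on transcription through YAP and TAZ with their TEAD partners and through MRTF with SRF. In squamous epithelium, basal cells carry keratins 5 and 14, and differentiating cells replace them with other keratins and with cornified envelope proteins.

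Total counts were 101153180 to 121070917 in the LPA-to-soft libraries and 62953957 to 119741813 in the soft-to-soft libraries. Low counts were of another kind in soft-to-soft replicates 1 and 2. Of counts from 1 to 19, 42.9% and 42.2% were even there, against 96.8% to 97.8% in the other 10 libraries. Pair 3 is therefore the 1 pair free of this difference. Totals of these 2 libraries and of the other 10 may be on unlike scales, so they do not rank the libraries by depth. Soft-to-soft replicate 1 had the most symbols with a count, 17464. Squamous markers stood high, with keratin 5 at a mean of 4297 CPM (counts scaled to library size). Marker levels in this paragraph are scaled to total counts alone, and CPM in the paragraphs below also carry TMM factors. The leukocyte markers CD3E, CD2 and MS4A1 and the fibroblast marker POSTN had no count in any of the 12 libraries. Summed over 10 markers each, leukocyte genes held 14.7 to 23.2 CPM in LPA-to-soft and 16.0 to 22.5 CPM in soft-to-soft, and fibroblast genes held 15.1 to 34.3 CPM in LPA-to-soft and 14.6 to 37.4 CPM in soft-to-soft. The labels do not say whether replicates were separate cultures. The p-values below therefore reflect the variation among these libraries alone, which may be technical. As the libraries are of bulk RNA, fewer cells of a type and less RNA per cell cannot be told apart.

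No gene passed the test between LPA-to-soft and soft-to-soft. In edgeR's quasi-likelihood test with replicate number as a block, 0 of 15437 genes (0%) had a Benjamini-Hochberg adjusted p under 0.05, and the smallest adjusted p was 0.151. At an unadjusted p under 0.05 there were 676 genes higher in LPA-to-soft (4.38%) and 555 lower (3.6%). DESeq2 with the same block gave an adjusted p to 11546 genes and called 53 higher (0.459%) and 19 lower (0.165%), while limma voom called 0. Over all genes tested, 7277 had positive differences and the median was -0.01 on the log2 scale. In 2444 genes (15.8%) LPA-to-soft was higher in 3 of 3 pairs, and in 2838 genes (18.4%) it was lower in 3 of 3. The 10 genes with the smallest p in each direction are therefore given as values, with levels in CPM and differences as edgeR log2 fold changes ± SE. Differences of LPA-to-soft minus soft-to-soft are meant unless another condition is named.

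Fibronectin led the genes that stood higher after LPA. FN1 encodes the matrix glycoprotein fibronectin, which integrins bind at focal adhesions. It had 85.2, 133 and 187 CPM in LPA-to-soft replicates 1, 2 and 3, against 50.6, 75.8 and 124 CPM in soft-to-soft replicates 1, 2 and 3. Each LPA-to-soft library was above the soft-to-soft library of its number, while the conditions overlapped across numbers. The log2 difference was 0.72 ± 0.10, with 0.75, 0.81 and 0.59 in the pairs (edgeR adjusted p = 0.151). Over 22 alternatives it lay between 0.58 and 0.81, with adjusted p from 6.16e-07 in DESeq2 to 1.

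The LIM protein LPP, which sits at focal adhesions and cell contacts, had 34.1, 50.1 and 28.4 CPM in LPA-to-soft, against 22.1, 29.9 and 19.5 CPM in soft-to-soft. Here too each pair had its LPA-to-soft member on top, with overlap across pairs. Its difference was 0.64 ± 0.10 (0.63, 0.74 and 0.55 in the pairs, edgeR adjusted p = 0.151). The ubiquitin ligase HUWE1 had 197, 281 and 223 CPM in LPA-to-soft, against 142, 199 and 167 CPM in soft-to-soft, a difference of 0.47 ± 0.08. All 3 pairs had about the same difference, between 0.42 and 0.50. KIAA1244, also named ARFGEF3, had 15.9, 23.3 and 17.1 CPM in LPA-to-soft, against 9.83, 13.9 and 13.4 CPM in soft-to-soft, so that every LPA-to-soft value exceeded every soft-to-soft value. Its difference was 0.59 ± 0.09, and no transcript length was matched to this symbol.

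The other leading genes of this direction were mostly nuclear. ZFHX3, a zinc finger and homeobox transcription factor, stood at 0.65 ± 0.11, with 8.90, 19.5 and 11.3 CPM in LPA-to-soft against 5.82, 11.6 and 7.52 CPM in soft-to-soft. TRRAP, a scaffold of histone acetyltransferase complexes, stood at 0.47 ± 0.08, the HMG-box protein BBX at 0.31 ± 0.06, the chromatin remodelling subunit BAZ2A at 0.28 ± 0.05 and the Mediator subunit MED13L at 0.30 ± 0.06. The sorting nexin SNX30, an endosomal protein, stood at 0.49 ± 0.08. In TRRAP, BBX, BAZ2A, MED13L and SNX30 the lowest LPA-to-soft library was above the highest soft-to-soft library, as it was in 408 of all genes tested (2.64%), while the reverse held in 337 (2.18%). BBX, for example, had 147, 147 and 142 CPM in LPA-to-soft against 114, 119 and 120 CPM in soft-to-soft. All 10 genes were positive in 3 of 3 pairs and in every alternative that gave a value, and DESeq2 called all 10. The genes were picked by p from these same libraries, so this agreement is no separate support for them.

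**Figure D1:**
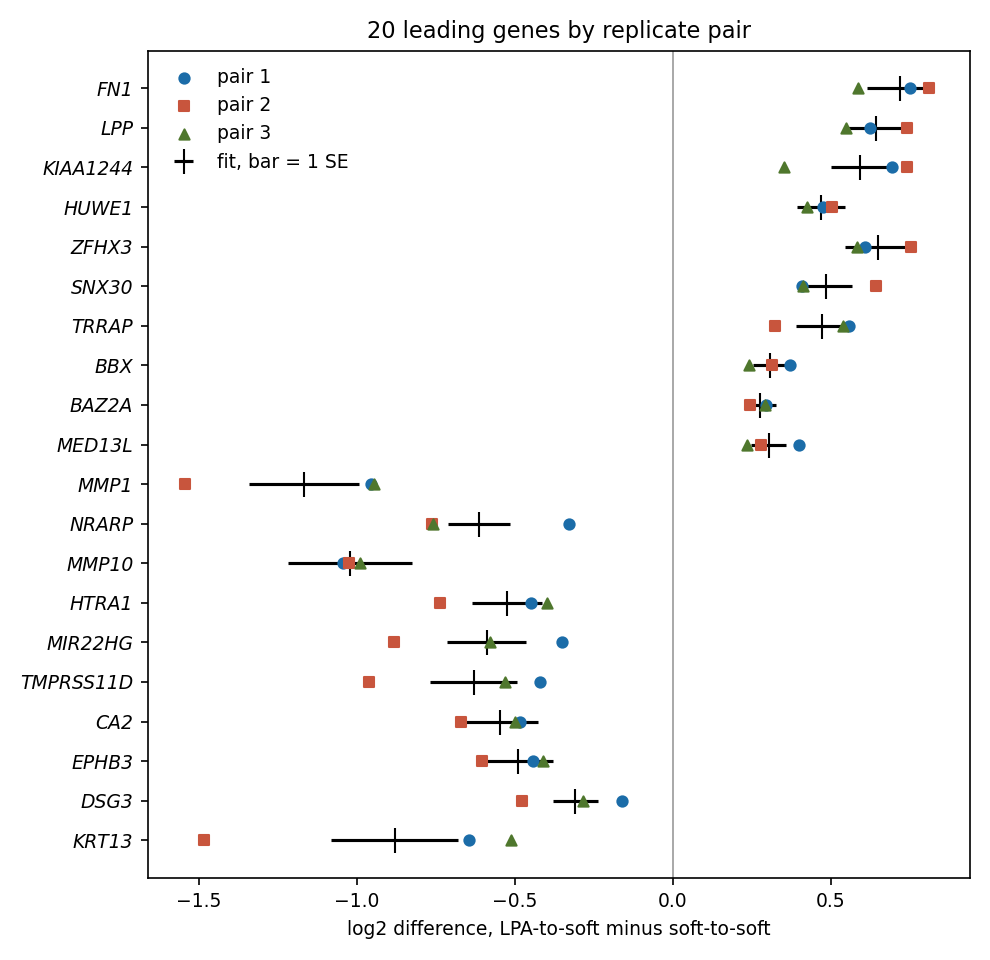
The 20 leading genes, with the log2 difference of LPA-to-soft minus soft-to-soft on the x axis. Coloured symbols are the 3 replicate pairs, and the black mark with its bar is the edgeR difference with 1 SE. All pair symbols lie on their gene's side of 0, FN1 between 0.59 and 0.81 and MMP10 between -1.05 and -0.99.

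The leading higher genes had long transcripts, and the difference between the conditions moved with transcript length throughout. Of these 10 genes, 9 could be given a length, and all 9 were above the median of all genes (3463 bases), with a median of 12677 bases. The leading lower genes had a median of 2045 bases. Among genes DESeq2 called higher, 48 of 49 with a length were above the median. Across 14267 genes, the Spearman correlation of the difference with length was 0.27, and with GC content it was -0.26. As these genes share the same 6 libraries, this is a description. When genes were split by length into 10 classes of about equal size, the median difference was 0.11 in the class with the longest transcripts and -0.07 in the class with the shortest. The longest class stood above the shortest in each LPA-to-soft library, relative to the mean of its replicate number, by 0.14, 0.15 and 0.11. In the other 9 libraries the same quantity ran from -0.11 to 0.02. Each mean includes the LPA-to-soft library of that number, so a high value there pushes the others down.

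A correction for length and GC content, chosen after these values were seen, left FN1 at 0.58, LPP at 0.42, ZFHX3 at 0.47 and HUWE1 at 0.30. TRRAP stood at 0.33 with it, BBX at 0.17, BAZ2A at 0.18 and MED13L at 0.12. MMP1 stood at -1.15 and MMP10 at -1.002, close to their uncorrected values. The corrected fit called 0 genes, with 799 at an unadjusted p under 0.05, and counted 338 of these higher and 461 lower. The part of transcript length in these results was not tested further. This corrected fit is called the length correction below. It removes GC content as well, so a shift under it cannot be credited to length alone.

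**Figure D2:**
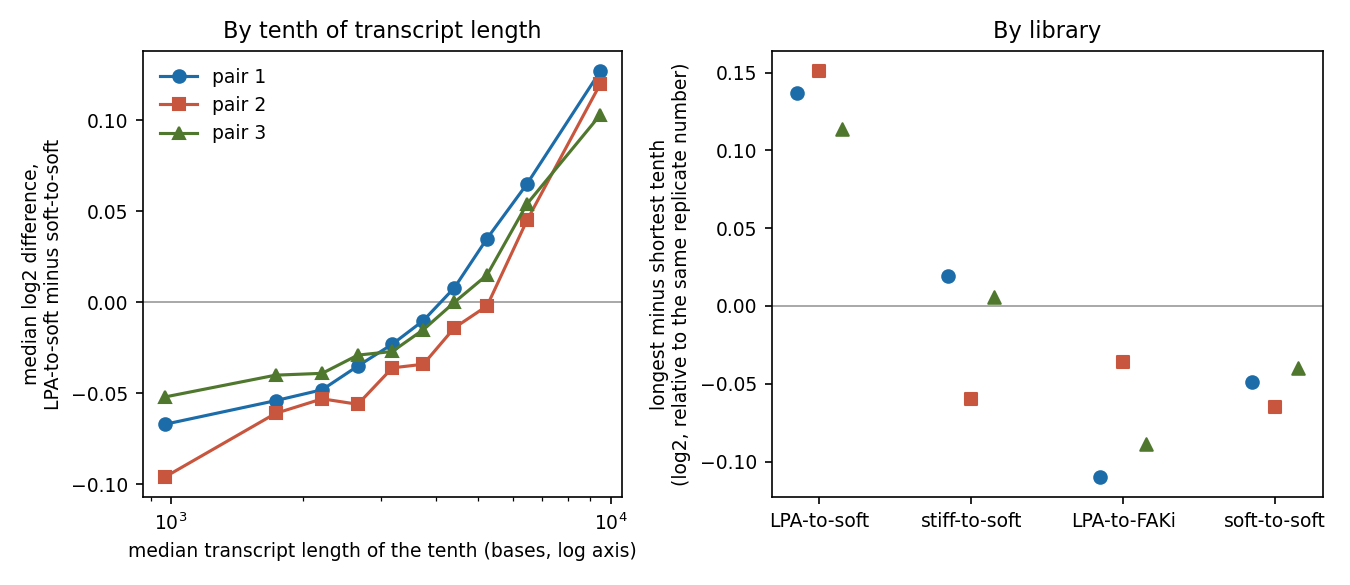
Left, the median log2 difference of LPA-to-soft minus soft-to-soft in each of 10 classes of transcript length, for the 3 replicate pairs, against the median length of the class on a log axis. Right, the longest minus the shortest class in each of the 12 libraries, relative to the mean of the libraries with the same replicate number. In every pair the line climbs with length, and the LPA-to-soft libraries lie at 0.11 to 0.15 while no other library exceeds 0.02. Each mean includes the LPA-to-soft library, so a high value there pushes the others down.

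The collagenase gene MMP1 had the smallest p among genes that stood lower after LPA, and MMP10 and HTRA1, which also encode secreted proteases, were among the 10. MMP1, the interstitial collagenase, had 45.1, 13.3 and 20.1 CPM in LPA-to-soft, against 87.4, 38.9 and 38.7 CPM in soft-to-soft. Replicate 1 was highest in both conditions, which overlapped across numbers, and each LPA-to-soft library was below its pair. The difference was -1.17 ± 0.17, with -0.96, -1.54 and -0.95 in the pairs (edgeR adjusted p = 0.151). Over the alternatives it ran from -1.36 to -0.91, with adjusted p from 7.45e-08 in DESeq2 to 0.9999.

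MMP10, stromelysin 2, which cleaves matrix proteins and activates collagenases, had 223, 18.9 and 41.6 CPM in LPA-to-soft, against 460, 38.5 and 82.7 CPM in soft-to-soft. Replicate numbers differed over 10-fold in both conditions, yet the pairs gave nearly 1 value, at -1.05, -1.03 and -0.99. The difference was -1.02 ± 0.20 (edgeR adjusted p = 0.263). When only the 6 libraries were fitted, edgeR called FN1 as higher and MMP10 and BTG2 as lower. MMP3, stromelysin 1, stood at -1.19 ± 0.45 but at 2.02 CPM or less in all 6 libraries. Of 22 matrix proteases measured, 10 were higher and 12 lower (median -0.06), and 6 were lower in 3 of 3 pairs. Over all genes tested, 18.4% were lower in 3 of 3.

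HTRA1, a secreted serine protease, had 13.7, 8.36 and 8.99 CPM in LPA-to-soft, against 18.7, 13.9 and 11.9 CPM in soft-to-soft, a difference of -0.53 ± 0.11. TMPRSS11D, a membrane-anchored trypsin-like protease of airway and oral epithelium, had 27.6, 4.26 and 4.71 CPM in LPA-to-soft, against 37.0, 8.33 and 6.82 CPM in soft-to-soft, a difference of -0.63 ± 0.14. Both were lower in every pair, with overlap across pairs. The carbonic anhydrase CA2 stood at -0.55 ± 0.12, the ephrin receptor EPHB3 at -0.49 ± 0.11 and MIR22HG, the host transcript of miR-22, at -0.59 ± 0.13.

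NRARP, a target of the Notch receptors that in turn dampens their signal, had 258, 80.9 and 188 CPM in LPA-to-soft, against 323, 137 and 319 CPM in soft-to-soft. Its difference was -0.61 ± 0.10 (-0.33, -0.76 and -0.76 in the pairs, edgeR adjusted p = 0.178). Of 18 Notch pathway genes, 14 were lower (median -0.26) and 7 were lower in 3 of 3 pairs, against 18.4% of all genes. The hairy and enhancer-of-split factors below, chosen after their values were seen, stood at -0.31 ± 0.11 for HES1 and -0.33 ± 0.09 for HES2. The receptor NOTCH2, with a transcript of 11389 bases, stood at 0.29 ± 0.07, and at 0.15 with the length correction. Without soft-to-soft replicates 1 and 2 the list's median was 0.05, and with the length correction it was -0.20.

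**Figure D3:**
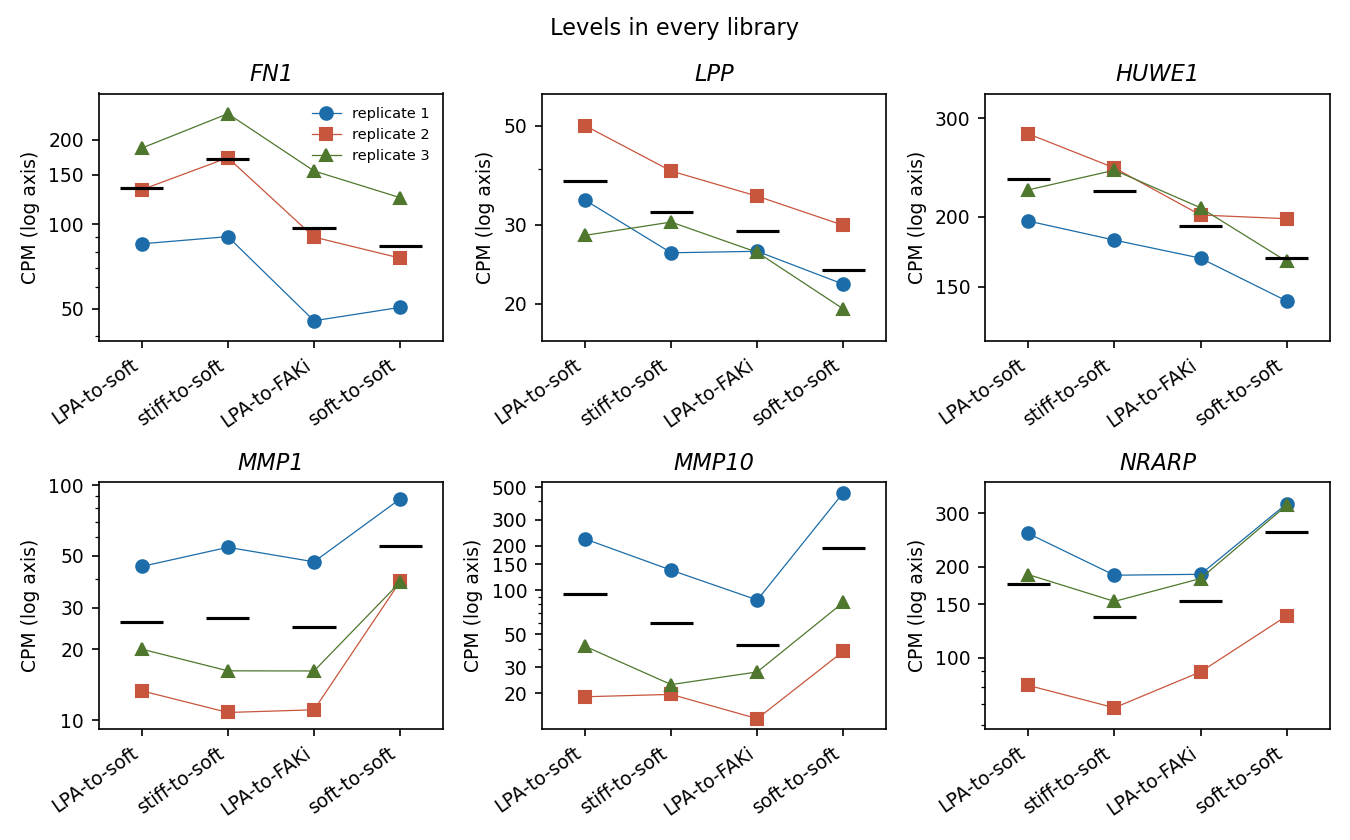
Levels of 3 leading higher genes (top) and 3 leading lower genes (bottom) in every library, as CPM on log axes. Symbols joined by thin lines carry the same replicate number, and black bars are condition means. MMP1 averaged 26.1 CPM in LPA-to-soft and 55.0 CPM in soft-to-soft, and FN1 135 and 83.6 CPM, with the replicate numbers keeping most of their order between conditions.

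Promoters of FN1 and MMP10 are shown because edgeR called both in the fit of the 6 libraries alone, 1 in each direction, and each window holds a known response element. Both windows were chosen after the values were seen. The windows are from RefSeq on GRCh38.p14, run from 250 bases before to 50 after the start, and were found for 14 of the 20 leading genes. The authors' build was hg19, so these coordinates do not apply to their files. Capitals mark matches, on either strand, to the cyclic AMP response element TGACGTCA in FN1 and to the AP-1 motif TGANTCA in MMP10.
FN1, chr2:215436019-215436318, minus strand: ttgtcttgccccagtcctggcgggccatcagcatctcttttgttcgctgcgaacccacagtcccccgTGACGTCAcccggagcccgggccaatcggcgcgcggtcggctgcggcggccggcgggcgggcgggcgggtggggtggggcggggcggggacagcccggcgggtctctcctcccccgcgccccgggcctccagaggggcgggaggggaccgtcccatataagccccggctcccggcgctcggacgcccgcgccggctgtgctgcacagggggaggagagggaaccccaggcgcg
MMP10, chr11:102780579-102780878, minus strand: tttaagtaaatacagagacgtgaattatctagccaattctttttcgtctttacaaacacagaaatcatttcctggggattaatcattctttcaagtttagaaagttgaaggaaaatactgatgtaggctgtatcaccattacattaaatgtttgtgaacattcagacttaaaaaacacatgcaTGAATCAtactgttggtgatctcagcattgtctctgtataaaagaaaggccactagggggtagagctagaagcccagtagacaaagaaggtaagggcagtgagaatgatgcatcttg

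The FN1 match begins at position -183 and the MMP10 match, TGAATCA, at position -67, counted from the start of transcription. The FN1 window held no AP-1 match and the MMP10 window no TGACGTCA. Of 35116 RefSeq promoter windows, 1.85% held TGACGTCA and 7.71% held TGANTCA. A match describes the letters and is no evidence of binding in these cells.

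Genes of squamous differentiation stood lower after LPA, and basal genes did so mainly in pair 2. Of 47 keratinocyte differentiation genes that passed the filter, 39 were lower and 8 higher, with a median of -0.38 against -0.01 over all genes. The median was -0.31, -0.60 and -0.20 in pairs 1, 2 and 3. In 3 of 3 pairs, 25 genes were lower, against 18.4% of all genes tested. Mean log2 CPM over the list was 4.43, 3.35 and 2.86 in LPA-to-soft replicates 1, 2 and 3, against 4.85, 3.98 and 3.08 in soft-to-soft. Replicate number moved this list more than LPA did, and within each number LPA-to-soft was the lower. None of the 47 was called by edgeR, 2 were called lower by DESeq2 and 13 had an unadjusted p under 0.05, all lower. Of all genes with a DESeq2 adjusted p, 0.165% were called lower, and 3.6% of all genes tested were lower at that unadjusted p. Without soft-to-soft replicates 1 and 2 the median was -0.18, and with the length correction -0.33.

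KRT13, a keratin of moist stratified epithelium such as the oral mucosa, had 419, 124 and 129 CPM in LPA-to-soft, against 655, 346 and 184 CPM in soft-to-soft. Pair 2 was widest apart at -1.49, and the fitted difference was -0.88 ± 0.20 (edgeR adjusted p = 0.354). DESeq2 did not call it, and called the other 19 leading genes. The kallikrein protease KLK11, chosen like the genes that follow after its values were seen, stood at -0.97 ± 0.26. SERPINB3, a squamous cell carcinoma antigen with a near-identical copy that can share its reads, stood at -0.66 ± 0.16. The cornified envelope genes IVL and TGM1, encoding involucrin and the transglutaminase that cross-links it, stood at -0.62 ± 0.26 and -0.76 ± 0.24.

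Of 25 basal keratinocyte genes, 23 were lower (median -0.18), and 10 were lower in 3 of 3 pairs, against 18.4% of all genes. The median was 0.01 in pair 1, -0.51 in pair 2 and -0.11 in pair 3, so most of it came from pair 2. Without soft-to-soft replicates 1 and 2 it was -0.02. KRT17 had 3134, 1295 and 1591 CPM in LPA-to-soft, against 3583, 2185 and 2080 CPM in soft-to-soft, a difference of -0.46 ± 0.11. KRT15 stood at -0.28 ± 0.07, KRT5 at -0.29 ± 0.10 and KRT14 at -1.04 ± 0.32. The keratins 14 and 17 have near-identical copies, and their reads may be split. The stem cell factor SOX2 had 42.9, 20.3 and 34.9 CPM in LPA-to-soft, against 58.6, 31.3 and 47.4 CPM in soft-to-soft, a difference of -0.51 ± 0.15. Every pair was lower, between -0.63 and -0.44, but without soft-to-soft replicates 1 and 2 the difference was -0.17.

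Cell contact genes were split. Of 34 epithelial junction genes 18 were higher and 16 lower (median 0.00). DSG3, the desmosomal cadherin of basal layers, had 164, 52.9 and 61.8 CPM in LPA-to-soft, against 183, 73.7 and 75.3 CPM in soft-to-soft, a difference of -0.31 ± 0.07. The desmosome plaque protein PKP1 stood at -0.46 ± 0.20, and at -0.18 without soft-to-soft replicates 1 and 2. The transcription factor SNAI2, which holds keratinocytes in a basal state and represses cadherins, stood at -0.34 ± 0.09. Of 17 mesenchymal genes 11 were lower (median -0.04), with pair medians of 0.18, -0.36 and 0.14, so that pairs went opposite ways, and without soft-to-soft replicates 1 and 2 the median was 0.14.

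LPA receptors and genes of LPA metabolism had differences on both sides of 0, none of them called. LPAR1 was the receptor with the highest mean in LPA-to-soft, and had 18.0, 17.7 and 27.2 CPM there, against 12.1, 19.8 and 25.8 CPM in soft-to-soft. Its pairs ran from -0.16 to 0.57, on both sides of 0, and the fitted difference was 0.17 ± 0.13. LPAR2 stood at -0.06 ± 0.09, LPAR3 at 0.05 ± 0.16, LPAR5 at -0.31 ± 0.23 and LPAR6 at -0.21 ± 0.32, and LPAR4 did not pass the filter, with 25 counts in the 12 libraries together. Without soft-to-soft replicate 1, LPAR3 stood at -0.13 and LPAR6 at 0.15, and without LPA-to-soft replicate 1, LPAR1 stood at -0.03.

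Autotaxin (ENPP2) was near the limit of detection, at 0.0167 to 0.200 CPM in LPA-to-soft and 0.0159 to 0.241 CPM in soft-to-soft. Of the lipid phosphate phosphatases, PPAP2C (PLPP2) had 135, 140 and 142 CPM in LPA-to-soft, against 142, 160 and 157 CPM in soft-to-soft. The conditions did not overlap, and the difference was -0.14 ± 0.07 (edgeR adjusted p = 0.659). PPAP2B (PLPP3) stood at 0.32 ± 0.14 and PPAP2A (PLPP1) at -0.13 ± 0.17. Of 12 genes of LPA production and breakdown, 9 were lower (median -0.08).

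Focal adhesion genes were split, and those with the smallest p stood higher. Of 37 genes 20 were higher and 17 lower (median 0.01), with 12 higher and 2 lower in 3 of 3 pairs. Over all genes tested, 15.8% were higher and 18.4% lower in 3 of 3 pairs. At an unadjusted p under 0.05, 7 were higher and 0 lower, against 4.38% and 3.6% of all genes. edgeR called 0 and DESeq2 called 2 higher, against 0.459% of all genes with a DESeq2 adjusted p. PTK2, which encodes FAK itself, had 49.2, 51.4 and 53.7 CPM in LPA-to-soft, against 46.9, 46.2 and 56.0 CPM in soft-to-soft. The conditions overlapped, at 0.05 ± 0.06, and without soft-to-soft replicates 1 and 2 the difference was -0.05. TNS3, a tensin that links integrins to actin, had 275, 356 and 474 CPM in LPA-to-soft, against 234, 292 and 388 CPM in soft-to-soft, a difference of 0.27 ± 0.07. Its pairs gave 0.24, 0.29 and 0.29, and the length correction left 0.21. ARHGAP35, a GTPase-activating protein, stood at 0.28 ± 0.08, and at 0.18 after the correction.

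Of 35 extracellular matrix genes 19 were higher and 16 lower (median 0.01), and pair medians were 0.18, -0.25 and 0.08. Without soft-to-soft replicates 1 and 2 the median was 0.16. Beside FN1, the basement membrane proteoglycan HSPG2 had 372, 249.3 and 375 CPM in LPA-to-soft, against 255, 189 and 280.3 CPM in soft-to-soft, a difference of 0.46 ± 0.19. Each pair was higher, by 0.40 to 0.55, and the length correction left 0.35 for this transcript of 14327 bases.

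Some genes that act on myosin stood higher without being called. Myosin light chain kinase, MYLK, stood at 0.50 ± 0.16, the myosin phosphatase subunit PPP1R12B at 0.40 ± 0.11 and the guanine nucleotide exchange factor ARHGEF12 at 0.30 ± 0.09. With the length correction these were 0.37, 0.22 and 0.15. ARHGEF12 had 46.4, 47.1 and 40.6 CPM in LPA-to-soft, against 39.4, 38.4 and 31.8 CPM in soft-to-soft, with no overlap. MYH9, the heavy chain of non-muscle myosin IIA, had 823, 796 and 885 CPM in LPA-to-soft, against 685, 803 and 661 CPM in soft-to-soft. Pair 2 was level and the other pairs higher, giving 0.22 ± 0.09 (edgeR adjusted p = 0.582).

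Targets of the tension-sensitive factors gave no common direction. Of 23 YAP/TAZ targets 16 were higher (median 0.03), with pair medians of 0.23, -0.22 and 0.11. The classical targets CYR61 and CTGF, matricellular proteins, stood at 0.05 ± 0.12 and 0.03 ± 0.20, and each was higher in pair 1 and lower in pairs 2 and 3. CTGF had 176, 89.1 and 269 CPM in LPA-to-soft, against 122, 109 and 329 CPM in soft-to-soft. ANKRD1 stood at 0.17 ± 0.38 with only pair 1 above 0. The phosphatase PTPN14, a YAP target and inhibitor, stood at 0.43 ± 0.09, with 63.4, 65.3 and 57.3 CPM in LPA-to-soft against 46.2, 51.8 and 40.9 CPM in soft-to-soft. Its values did not overlap, its transcript has 12985 bases, and the correction left 0.26. Of 22 SRF/MRTF targets 9 were higher (median -0.02), among them talin (TLN1) at 0.18 ± 0.08 and vinculin (VCL) at 0.16 ± 0.07, which the length correction left at 0.11 and 0.05.

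Immediate early genes, which growth factors and stress switch on within minutes, stood lower after LPA. Of 37 genes 34 were lower and 3 higher (median -0.23). In 3 of 3 pairs 20 were lower, and 13 were lower at an unadjusted p under 0.05. Over all genes tested, these shares were 18.4% and 3.6%. The median was -0.05, -0.26 and -0.28 in pairs 1, 2 and 3. IER3 had 494, 372 and 427 CPM in LPA-to-soft, against 567, 425 and 581 CPM in soft-to-soft, a difference of -0.28 ± 0.07. IER5 stood at -0.18 ± 0.05 and PPP1R15A, a phosphatase subunit also induced by stress, at -0.29 ± 0.09, each with all 3 pairs lower. The transcription factor EGR1 stood at -0.19 ± 0.14, with pair 1 above 0. Of 19 EGF receptor ligands and feedback genes 11 were lower (median -0.07). The ligand AREG, with 2.34, 1.59 and 1.88 CPM in LPA-to-soft against 3.03, 2.94 and 2.50 CPM in soft-to-soft, stood at -0.56 ± 0.20.

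Cytokine, hypoxia and lipid genes were higher on balance, but their pairs differed widely. Of 32 NF-kB and cytokine genes 29 were higher and 3 lower (median 0.18), yet the pair medians were 0.08, 0.66 and -0.09. CSF2, which encodes the cytokine GM-CSF, had 17.6, 36.0 and 16.4 CPM in LPA-to-soft, against 11.5, 23.5 and 12.8 CPM in soft-to-soft. It was higher in each pair, and its difference was 0.53 ± 0.13 (edgeR adjusted p = 0.375). Its transcript is short, at 787 bases, and the length correction gave 0.59. Without soft-to-soft replicates 1 and 2 it stood at 0.31. CSF1 stood at 0.32 ± 0.13, or 0.17 without those libraries, and the signalling adaptor TRAF1 at 0.30 ± 0.12.

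Of 38 hypoxia and glycolysis genes 32 were higher (median 0.13), with pair medians of 0.37, 0.02 and -0.05. The stress gene DDIT4, an inhibitor of mTOR signalling, had 191, 200 and 237 CPM in LPA-to-soft, against 81.6, 110 and 262 CPM in soft-to-soft, so pairs 1 and 2 were higher and pair 3 lower. Its difference was 0.69 ± 0.23, and 0.32 without soft-to-soft replicates 1 and 2. Hexokinase 2 (HK2) had 104, 85.2 and 92.9 CPM in LPA-to-soft, against 68.4, 83.0 and 80.3 CPM in soft-to-soft, a difference of 0.28 ± 0.10 with no overlap. Of 25 cholesterol synthesis genes 19 were higher (median 0.15), with pair 3 at -0.08. Of 12 fatty acid synthesis genes 11 were higher (median 0.13). Acetyl-CoA carboxylase (ACACA), the committed step of fatty acid synthesis, had 139, 132 and 156 CPM in LPA-to-soft, against 101, 110 and 128 CPM in soft-to-soft. No value overlapped, the difference was 0.34 ± 0.08, and the length correction left 0.21.

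**Figure D4:**
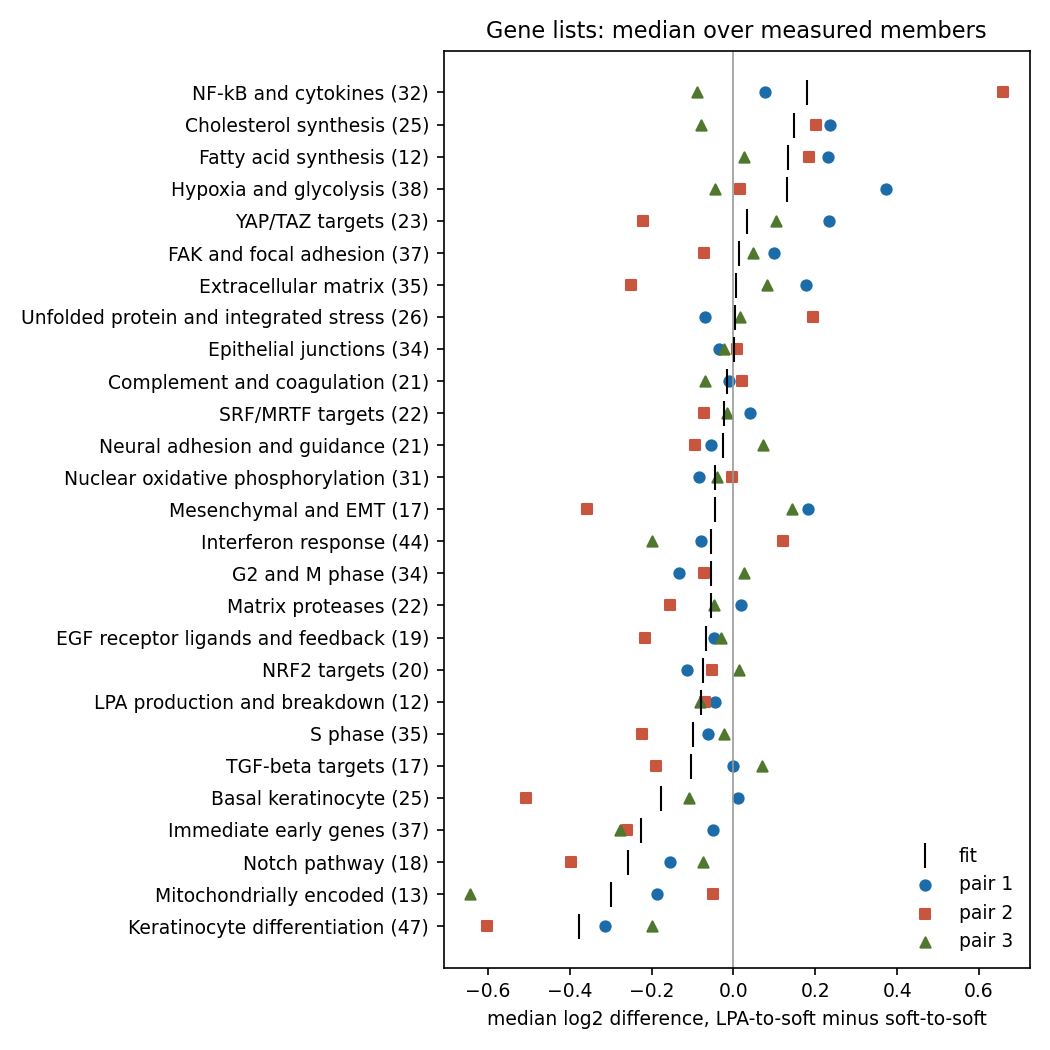
Median log2 difference of LPA-to-soft minus soft-to-soft over the measured members of each of the gene lists shown, all of 10 or more, with the number of members in brackets. Black marks are medians of the edgeR differences and coloured symbols the medians within the 3 replicate pairs. Keratinocyte differentiation lies below 0 in all 3 pairs, at -0.31, -0.60 and -0.20, while NF-kB and cytokines lie at 0.08, 0.66 and -0.09.

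S phase and mitochondrially encoded genes stood lower, S phase genes only slightly. Of 35 S phase genes 34 were lower (median -0.10), with 17 lower in 3 of 3 pairs, against 18.4% of all genes. Pair medians were -0.06, -0.22 and -0.02. The replication helicase subunit MCM5 stood at -0.21 ± 0.10 and the cell cycle factor E2F1 at -0.26 ± 0.12. Of 34 G2 and M phase genes 25 were lower (median -0.06), but pair medians were -0.13, -0.07 and 0.03, and the median was 0.04 without soft-to-soft replicates 1 and 2. The long centromere protein transcript CENPF stood at 0.18 ± 0.11 and at 0.03 after the length correction. All 13 mitochondrially encoded genes were lower (median -0.30), with pair medians of -0.19, -0.05 and -0.64. The share of counts from these genes was 6.94%, 4.31% and 5.47% in LPA-to-soft, against 8.01%, 4.4% and 8.22% in soft-to-soft. Of 31 nuclear genes of oxidative phosphorylation 26 were lower, by a median of 0.04, and these transcripts are short, with a median of 1584 bases.

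The differences were then set against the stiff-to-soft condition, to test where LPA conditioning and stiff conditioning gave different levels. These contrasts share the LPA-to-soft libraries with the one above. Against stiff-to-soft, edgeR called 1 of 15437 genes (0.00648%), the thrombomodulin gene THBD, an anticoagulant receptor also made by keratinocytes. THBD had 111, 92.5 and 69.7 CPM in LPA-to-soft, and averaged 91.0 CPM there against 65.8 CPM in stiff-to-soft. It was higher by 0.46 ± 0.05 (edgeR adjusted p = 0.0496), and the call was lost when any 1 of 10 libraries was left out. In soft-to-soft it averaged 91.7 CPM, so it did not separate LPA-to-soft from soft-to-soft, at -0.02 ± 0.05.

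DESeq2 called 32 of 14539 genes higher (0.22%) and 34 lower (0.234%) against stiff-to-soft. CSF2 was lower in LPA-to-soft than in stiff-to-soft, called by DESeq2 and not by edgeR, at 23.3 CPM against 41.6 CPM on average (-0.80 ± 0.12, edgeR adjusted p = 0.213). FN1 stood 0.29 lower, at 135 CPM against 170.2 CPM (edgeR adjusted p = 0.497). The squamous genes lay the other way: KRT15 stood at 0.45 ± 0.07, DSG3 at 0.36 ± 0.07, TMPRSS11D at 0.59 ± 0.14 and KRT13 at 0.53 ± 0.20 over stiff-to-soft. edgeR called none of these 4, while DESeq2 called KRT15, DSG3 and TMPRSS11D. The differentiation list had a median of 0.28 and the immediate early list 0.22 over stiff-to-soft. MMP1 was alike in size in both, at 26.1 ± 16.7 CPM in LPA-to-soft and 27.1 ± 23.8 CPM in stiff-to-soft (SD, n = 3), with a difference of 0.10 ± 0.17.

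Against LPA-to-FAKi, where FAK was inhibited in the last day, edgeR called 0 of 15437 genes (0%), with 3439 at an unadjusted p under 0.05, while DESeq2 called 591 of 13042 higher (4.53%) and 640 lower (4.91%) and voom 37 in all. FN1 stood higher in LPA-to-soft by 0.58 ± 0.10 (135 CPM against 96.8 CPM, edgeR adjusted p = 0.0752). MMP10 stood higher by 0.81 ± 0.20 (94.4 CPM against 42.3 CPM) and CTGF by 0.82 ± 0.20 (178 CPM against 116 CPM), each with an edgeR adjusted p of 0.0853. CSF2 stood lower by 0.64, at 23.3 CPM against 36.8 CPM (edgeR adjusted p = 0.0752). DESeq2 called FN1, MMP10, CTGF and CSF2 in this comparison, and edgeR called none of them. The edgeR count here hung on single libraries. It was 639 without soft-to-soft replicate 2 and 62 without LPA-to-FAKi replicate 3. Soft-to-soft replicate 2 belongs to neither condition compared here, and enters only through the fit shared by all 12 libraries.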

How the data were processed

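Per the labels' protocols, RNeasy columns gave the RNA and a TruSeq stranded kit the libraries. The authors deposited raw counts of reads for each gene symbol, and a table of log2 normalized values. Build hg19 and the tools STAR, HTSeq, DESeq2, cutadapt and FastQC come from the submitters' processing notes. No source used here gives the strand setting of the counting, so antisense and overlapping genes are uncertain. The deposited log2 values are the counts times 1 factor per library (relative range over genes at most 6.9e-09) plus 1, and entered no test. No column lacked a sample (0). Symbols that a spreadsheet had made into dates numbered 28 and held 0.177% of counts.

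Counts were tested in R 4.3.3 with edgeR 4.0.16 (quasi-likelihood F test, TMM, its low-count filter by condition), with condition and replicate number as terms, over all 12 libraries with a common dispersion trend, and Benjamini-Hochberg adjustment over 15437 genes. Log2 CPM used a prior count of 2. The block is in the main test because the comparison pairs libraries by replicate number, taken from the sample labels. Libraries of the same number deviated together (r from 0.312 to 0.659, 18 pairs), and different numbers gave -0.517 to 0.037 (36 pairs). Since deviations were taken within conditions of 3 libraries, positive values for the same number push the others below 0. For genes with many counts, counting error is small at these depths, and library spread sets the precision. This does not hold for genes with few counts, such as ENPP2 with 123 in the 12 libraries together. Named are the 10 genes with the smallest p per direction, since fewer than 10 were called, a fixed set (LPAR1 to LPAR6, ENPP2, the PPAP2 genes, FN1, CYR61, CTGF, ANKRD1, PTK2, MYH9), and up to 3 members with the smallest p of each of 33 gene lists. Those list members, BTG2, HES1, IVL, TGM1, KRT5, KRT14, EGR1 and genes called by DESeq2 were chosen after their values were seen. The comparison and the lists were chosen with earlier results of these data known. Alternatives were no replicate block, the 6 libraries alone, DESeq2 1.42.0, limma 3.58.1 voom, other scalings and filters, the counts of 10 libraries divided by 2, no soft-to-soft replicates 1 and 2, each library left out, and, chosen after seeing the data, a correction for length and GC content of the longest GENCODE transcript, known for 92.4% of genes. Results for some items are not reported here. The code was tested on simulated data.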

Additional observations from a re-analysis of the deposited data

Results flagged for a closer look

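THBD differed between LPA-to-soft and stiff-to-soft, both conditions that the series design counts as having learned, by 0.459 on the log2 scale (LPA-to-soft minus stiff-to-soft, edgeR contrast of the 2 conditions, adjusted p = 0.0496). It was singled out because this test of the difference between the conditions passed the threshold. Its means were 91.0 CPM in LPA-to-soft and 65.8 CPM in stiff-to-soft, against 112 CPM in LPA-to-FAKi and 91.7 CPM in soft-to-soft. Groups of 3 libraries were too small for the check of single outlying samples.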

How the results depend on the processing

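Between LPA-to-soft and soft-to-soft, edgeR called 0 genes in every alternative except the fit of the 6 libraries alone (3), and DESeq2 called 72. With no replicate block it called 0, with 211 genes at an unadjusted p under 0.05, and without LPA-to-soft replicate 2 it had 641 such genes. Without soft-to-soft replicates 1 and 2, where 1 control library is left, it had 460. Against stiff-to-soft the count was 0 with no replicate block, 4 with the 6 libraries alone, 66 with DESeq2 and 0 to 3 over the fits that left out 1 library. Against LPA-to-FAKi it was 1231 with DESeq2, 37 with voom, 25 with no filter on low counts and 0 to 639 over the fits that left out 1 library. The cause was not tested. All 20 leading genes kept their direction in every alternative that gave a value, but they were picked by p from the same counts. Of 762 values for named genes under the alternatives 706 kept their direction and side of the threshold, and of 725 list medians 700 moved by less than the spread between pairs. Genes near 0 turned sign. With no replicate block CTGF stood at -0.068 and ANKRD1 at -0.054. CTGF stood at -0.020 in the 6 libraries alone and at -0.018 in voom, where ANKRD1 stood at -0.090. Without soft-to-soft replicates 1 and 2, CYR61 stood at -0.017, ANKRD1 at -0.346 and PTK2 at -0.052, and the length and GC correction gave LPAR2 0.026. Leaving out 1 library at a time gave -0.027 to 0.300 for LPAR1, -0.115 to 0.001 for LPAR2, -0.131 to 0.219 for LPAR3, -0.488 to 0.146 for LPAR6, -0.986 to 0.264 for ENPP2, -0.260 to 0.005 for PPAP2A, -0.119 to 0.15 for CYR61, -0.361 to 0.233 for CTGF and -0.074 to 0.540 for ANKRD1.

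The unlike share of even low counts in soft-to-soft replicates 1 and 2 limits what small differences can show, since these are 2 of its 3 libraries. The 3 pairs and the absence of a stated LPA dose are further limits, and transcript length moved with condition.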

Other observations

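Interferon response genes were lower on balance in LPA-to-soft than in soft-to-soft, with 32 of 44 below 0 (median -0.05), but the pair medians were -0.08, 0.12 and -0.20. Without soft-to-soft replicates 1 and 2 the list's median was -0.29. IFI27 had 143, 63.8 and 234 CPM in LPA-to-soft, against 153, 89.4 and 336 CPM in soft-to-soft, a difference of -0.37 ± 0.12 that was below 0 in every pair. IFI6 had 151, 35.3 and 327 CPM in LPA-to-soft, against 152, 73.6 and 483 CPM in soft-to-soft, with pair 1 level and the others lower. Against LPA-to-FAKi the same list had a median of 0.54, and IFI6 stood at 1.05 ± 0.22 (edgeR adjusted p = 0.0757, called by DESeq2). Of 20 NRF2 targets 14 were lower (median -0.07). The detoxifying reductase AKR1B10 stood at -0.79 ± 0.31 (-0.39 without soft-to-soft replicates 1 and 2) and the cystine transporter SLC7A11 at 0.44 ± 0.17, neither called by edgeR. Of 17 TGF-beta targets 12 were lower (median -0.10), but pair medians were -0.001, -0.19 and 0.07, and the median was 0.03 without soft-to-soft replicates 1 and 2. In that list the matrix protein LTBP2 stood at 0.43 ± 0.14. Of 26 genes of the unfolded protein and stress response 15 were higher (median 0.00). Of 21 neural adhesion and guidance genes 12 were lower (median -0.03, and 0.05 without soft-to-soft replicates 1 and 2), with the ephrin receptor EPHA2 at -0.33 ± 0.10 and ROBO3, below 1 CPM in all 6 libraries, at 0.91 ± 0.29. Of 21 complement and coagulation genes 11 were lower (median -0.02). Of 10 squamous epithelial markers 8 were lower (median -0.32), SFN among them at -0.34 ± 0.08. Of 4 endothelial markers that passed the filter the median was 0.18, for 4 fibroblast markers 0.08 and for 4 leukocyte markers 0.06.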
